A study of Mus musculus with 15 samples.

Results

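P53 target genes are the genes whose transcription the tumour suppressor P53 switches on, and their levels were compared in 5 lines of mouse embryonic fibroblasts (MEFs) as an indirect readout of P53 activity in each line. The members were 39 textbook targets, of which 34 had an array row annotated to that gene alone and were analysed, out of 14996 such rows in all. Ei24 and Rrm2b were read only by rows shared with other genes, and Psrc1, Bax and Fdxr had no row in the table used here, so these 5 were left out. The groups, with 3 arrays in each, were P53-KO/Mta1 (P53-knockout MEFs over-expressing Mta1), P53-KO (P53-knockout MEFs), Mta1-KO/Mta1 (Mta1-knockout MEFs into which Mta1 was put back), Mta1-KO (Mta1-knockout MEFs) and WT. The labels give embryonic day 12.5 for both P53-KO lines and day 9.0 for the other 3 lines, with C57BL/6J as the strain of all, and the study's methods say that the P53-KO MEFs came from another laboratory. P53 status, embryonic age and origin of the line therefore cannot be told apart. By the study's description, Mta1-KO/Mta1 was made from Mta1-KO MEFs and P53-KO/Mta1 from P53-KO MEFs, so the lines of a pair are not independent. The vector that carried Mta1 and the number of embryos behind each line are not given in the sources at hand.

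P53 is a transcription factor that is kept low in unstressed cells by the ubiquitin ligase Mdm2 and accumulates when DNA is damaged or when oncogenes are active. It binds DNA as a tetramer at a response element made of adjacent half-sites, and its targets arrest the cell cycle, start apoptosis, repair DNA, adjust metabolism and, through Mdm2, shut P53 off again. In MEFs it is known for the growth arrest of cells in culture, in which the cyclin-dependent kinase inhibitor P21, encoded by Cdkn1a, is a main effector. MTA1, part of the nucleosome remodeling and histone deacetylase complex NuRD, is the factor that the study removed and put back. The study cites earlier work in which MTA1 controlled the stability of P53. It also cites work in which MTA1 with HDAC2 acted at the promoter of P21 without need of P53. Cdkn1a is therefore no readout of P53 alone, and which of these routes applies in these lines was not tested. The question here is which P53 targets differ in the P53-KO lines and which differ in the Mta1-KO lines. Against WT, MTA1 status in the Mta1-KO lines cannot be told apart from other differences between the lines.

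The response element is shown first, because it is the sequence through which P53 acts on its targets, and Cdkn1a, Ccng1 and Ckap2, which are described in detail, carry one close to a transcription start. Fas, Eda2r, Phlda3, Dram1, Mdm2, Mdm4, Ak1 and Polk, which are also described, had a window without a match. RefSeq promoter windows on GRCm38.p6, from 250 bases before to 50 bases after each start, were found for 28 of the 34 members, and not for Ddb2, Perp, Pmaip1, Trp53inp1, Xpc or Zmat3. They were searched for the P53 response element, 2 P53 half-sites of 10 bases in a row with no spacer, a pattern that reads the same on both strands. The central C and G of each half-site were required, and up to 3 of the other letters could differ from the consensus, a limit chosen after the matches were seen. An element was found in 6 of the 28 members (21.4%), against 1.63% of 27025 genes with a window. With at most 2 differing letters it was found in 3 members (10.7%) and in 0.392% of genes. Elements with a spacer, or outside these windows, were not searched. The stretches before the start are given 5′ to 3′ on the strand of the gene, with the 20 bases of the element in capitals.
Cdkn1a, chr17:29090898-29090977, plus strand: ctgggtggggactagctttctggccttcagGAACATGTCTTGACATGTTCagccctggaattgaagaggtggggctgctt
Ccng1, chr11:40755432-40755511, minus strand: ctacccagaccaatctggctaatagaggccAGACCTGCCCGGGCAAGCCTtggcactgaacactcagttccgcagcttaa
Ckap2, chr8:22185973-22186052, minus strand: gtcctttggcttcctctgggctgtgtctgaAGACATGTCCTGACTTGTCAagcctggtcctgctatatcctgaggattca
Bbc3, chr7:16309456-16309535, plus strand: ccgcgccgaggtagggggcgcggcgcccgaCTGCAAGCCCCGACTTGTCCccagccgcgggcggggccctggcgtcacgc
Aen, chr7:78895937-78895956, plus strand: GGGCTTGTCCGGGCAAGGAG
Sesn1, chr10:41887266-41887285, plus strand: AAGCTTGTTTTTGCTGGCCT
The element ends 32 bases before the upstream one of the 2 Cdkn1a starts and differs from the consensus in 1 letter. In Ccng1, where it ends 176 bases before the start, it also differs in 1 letter. The Ckap2 element ends 184 bases before the start and differs in 2 letters, and those of Bbc3, Aen and Sesn1 differ in 3. For Aen and Sesn1 the element alone is printed, since another start of the gene lies upstream of it. A match is a description of the sequence and does not show that P53 was bound in these MEFs.

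The arrays were Affymetrix Mouse Exon 1.0 ST arrays of total RNA, and the deposited table holds log2 values normalized by the authors, in which the median over the 15 arrays had been subtracted from every row, so a value of 0 is the middle array of that row and no absolute level is held. A level can therefore be compared between lines and not between genes, and whether a marker is absent from a line cannot be read. Array medians over all 16755 rows lay between -0.0165 and 0.0231. The median SD between the arrays of a group was 0.0833 for the members and 0.0813 for all rows. A row was called up or down at a Benjamini-Hochberg adjusted p under 0.05 from limma and a change of 2-fold or more, and 3 arrays a group limit the precision. The study calls the arrays biological replicates without saying whether they are separate cultures or embryos, so the spread behind the p-values is that between these arrays and may be technical. Trp53, the gene of P53, had no row of its own in the table used here, so its loss was not checked here. The row of Mta1 had values of -1.13, -1.35 and -1.28 in arrays labelled Mta1-KO/Mta1, -1.06, -1.08 and -1.10 in Mta1-KO and 0.08, -0.06 and 0 in WT. Arrays labelled Mta1-KO/Mta1 thus held no more of it than Mta1-KO (log2 fold change -0.17, adjusted p = 0.0669 from limma), and directions drawn from that group are those of its label. In P53-KO/Mta1 the row was 1.21-fold above P53-KO (adjusted p = 0.00603). Whether its probes read the introduced Mta1 is not stated by the sources at hand. The study also compared MTA1 protein between all its lines by Western blot, which was not examined here.

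Cdkn1a, Trp53inp1, Fas, Phlda3, Dram1, Ccng1, Cd82, Sulf2 and Btg2 were called up in Mta1-KO relative to WT, by 9.01-fold for Trp53inp1 down to 2.22-fold for Btg2. No member was called down (0 of 34, where 2.41% of all rows were), and at an adjusted p under 0.05 from limma alone 19 members were higher and 3 lower, beside 17.6% and 22.6% of all rows. In P53-KO, by contrast, only Eda2r and Ckap2 were called down and Fas was called up. Cdkn1a and Ccng1, with the closest matches to the response element in the promoter windows that were searched, were not called in P53-KO against WT. Called up in Mta1-KO against WT were 9 of 34 members (26.5%), where 4.23% of all rows were called up. Called down in P53-KO against WT were 2 of 34 (5.88%), where 7.26% of all rows were called down, a share no larger than the background, and 1 was called up, beside 4.87% of all rows. At an adjusted p under 0.05 alone 12 of 34 were higher and 16 of 34 lower in P53-KO, beside 26% and 27.4% of all rows. Both shares exceeded those of all rows, that of lower members by more, and most of these falls were smaller than 2-fold. The median log2 fold change of the members was 0.36 in Mta1-KO against WT, beside 0.03 over all rows, and -0.04 in P53-KO against WT, beside 0.04 over all rows. Both comparisons use the same WT arrays.

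**Figure D1:**
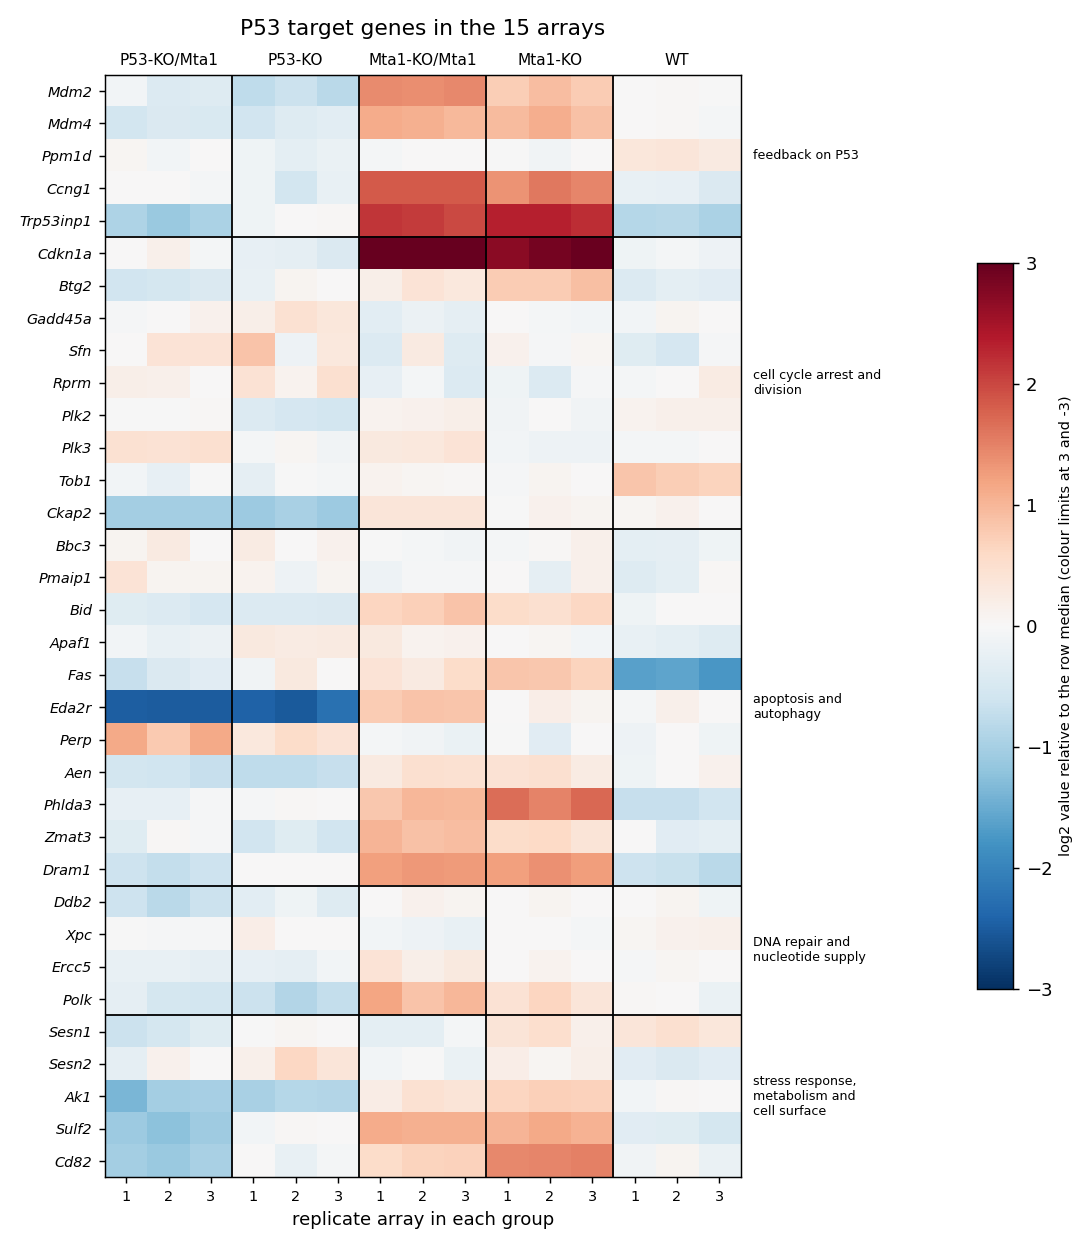
Log2 value of the 34 P53 target genes in each of the 15 arrays, relative to the median of the row, by group across and by role down; colours stop at 3 and -3. The Mta1-KO and Mta1-KO/Mta1 columns are red for Cdkn1a, Ccng1 and Trp53inp1, and the P53-KO and P53-KO/Mta1 columns are deep blue for Eda2r.

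Over the members, the median of an array lay between -0.26 and -0.22 in P53-KO/Mta1, between -0.14 and -0.07 in P53-KO, between 0.29 and 0.38 in Mta1-KO/Mta1, between 0.16 and 0.33 in Mta1-KO and between -0.10 and 0.00 in WT. The WT arrays were thus closer to the P53-KO arrays than to either Mta1-KO line. The highest group mean belonged to Mta1-KO or Mta1-KO/Mta1 for 21 of the 34 members, and the lowest belonged to P53-KO or P53-KO/Mta1 for 20 and to WT for 9. These are descriptions of the list, without a test, and the highest and lowest groups were not counted over all rows.

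Of the 5 targets that feed back on P53, Ccng1 and Trp53inp1 were called up in Mta1-KO against WT and Mdm2 and Mdm4 were higher by less than 2-fold. Mdm2, the ubiquitin ligase that degrades P53, had values of -0.09, -0.40 and -0.38 in P53-KO/Mta1, -0.76, -0.64 and -0.80 in P53-KO, 1.41, 1.39 and 1.45 in Mta1-KO/Mta1, 0.73, 0.93 and 0.76 in Mta1-KO and 0.00, 0.04 and -0.01 in WT. No array of one group overlapped with another group, and the order was P53-KO, P53-KO/Mta1, WT, Mta1-KO and Mta1-KO/Mta1 from low to high. Mdm2 was 1.74-fold above WT in Mta1-KO (log2 fold change 0.80, standard error 0.0796, adjusted p = 1.36e-06 from limma) and 1.67-fold lower in P53-KO than in WT (log2 fold change -0.74, adjusted p = 1.69e-06). Both differences stay below 2-fold. The difference of Mta1-KO/Mta1 from WT, 2.65-fold, was called.

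Mdm4, a relative of Mdm2 that masks the activation domain of P53, had means of -0.48 ± 0.0622 in P53-KO/Mta1, -0.42 ± 0.144 in P53-KO, 1.05 ± 0.0696 in Mta1-KO/Mta1, 0.97 ± 0.102 in Mta1-KO and -0.01 ± 0.0571 in WT (SD, n = 3 arrays each). The 2 Mta1-KO lines lay together above WT and the P53-KO lines together below it. At 1.97-fold above WT in Mta1-KO it just missed the call, which it passed without WT replicate 2 (log2 fold change 1.01) or Mta1-KO replicate 3 (1.02), and at 2.09-fold in Mta1-KO/Mta1 it passed. Ccng1, cyclin G1, which guides a phosphatase to Mdm2, was 3.42-fold above WT in Mta1-KO (adjusted p = 2.27e-09). Its values were 0.01, 0.00 and -0.07 in P53-KO/Mta1, -0.12, -0.56 and -0.22 in P53-KO, 1.85, 1.83 and 1.83 in Mta1-KO/Mta1, 1.35, 1.59 and 1.46 in Mta1-KO and -0.22, -0.25 and -0.44 in WT. The P53-KO and WT arrays of Ccng1 overlapped, and their difference was 0.00 on the log2 scale with a 95% interval from -0.21 to 0.21. Trp53inp1, a stress-induced nuclear protein that favours P53 phosphorylation, was the member with the largest rise in Mta1-KO, 9.01-fold (log2 fold change 3.17, standard error 0.0668, adjusted p = 8.02e-14). It was also higher in P53-KO than in WT, 1.81-fold (adjusted p = 6.50e-08), and in P53-KO/Mta1 its values of -0.93, -1.12 and -0.94 were close to the WT values of -0.86, -0.84 and -0.94. Ppm1d, the phosphatase WIP1, stood apart, with WT values of 0.34, 0.37 and 0.27 above all other arrays, which ran from -0.30 to 0.07.

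**Figure D2:**
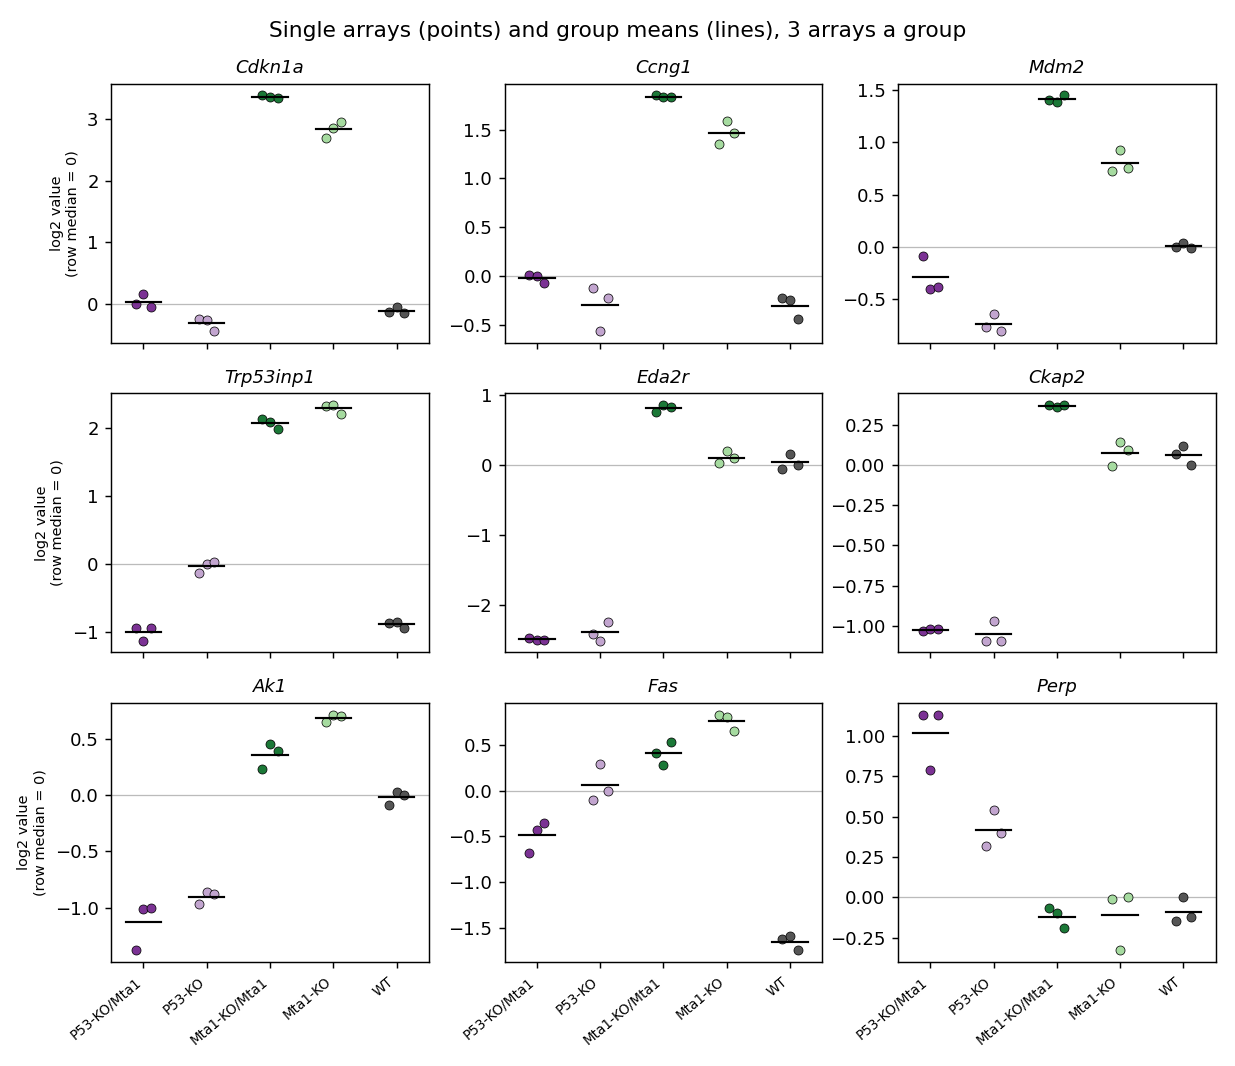
Log2 value relative to the row median (vertical axis, scaled for each gene) in the 15 arrays for 9 P53 target genes; points are arrays and lines are means of the 3 arrays of a group. Cdkn1a and Ccng1 are high in both Mta1-KO lines only, Eda2r, Ckap2 and Ak1 are low in both P53-KO lines, Mdm2 lies lowest in P53-KO, Trp53inp1 lies highest in both Mta1-KO lines, Fas is lowest in WT and Perp is highest in P53-KO/Mta1.

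Among the targets that stop the cell cycle, Cdkn1a and Btg2 were called up in Mta1-KO relative to WT and the other 7 were not called. Cdkn1a, which encodes P21, had values of 0.00, 0.15 and -0.05 in P53-KO/Mta1, -0.25, -0.27 and -0.44 in P53-KO, 3.39, 3.36 and 3.35 in Mta1-KO/Mta1, 2.70, 2.86 and 2.96 in Mta1-KO and -0.14, -0.06 and -0.15 in WT. All 6 arrays of the Mta1-KO lines lay at least 2.70 above the row median, while the WT arrays lay above those of P53-KO and below those of P53-KO/Mta1. Cdkn1a was 7.75-fold above WT in Mta1-KO (log2 fold change 2.95, standard error 0.0743, adjusted p = 4.09e-13 from limma) and 11.1-fold higher in Mta1-KO/Mta1 than in WT (adjusted p = 9.60e-14). P53-KO differed from WT by -0.20 (95% interval -0.36 to -0.04, adjusted p = 0.0319), a fold of 1.15.

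Btg2, an antiproliferative regulator of transcription and mRNA decay, was 2.22-fold above WT in Mta1-KO (adjusted p = 4.32e-08). Tob1, of the same antiproliferative family, had its highest values in WT, 0.83, 0.74 and 0.66, and was 1.65-fold lower in Mta1-KO and 1.82-fold lower in P53-KO. Plk2 and Plk3, polo-like kinases of the stress response, differed from WT by at most 1.54-fold in Mta1-KO and P53-KO. Gadd45a, which binds PCNA and slows the cycle, did not pass in Mta1-KO (log2 fold change -0.05, 95% interval -0.21 to 0.11) and was 1.25-fold higher in P53-KO. Sfn and Rprm, inhibitors of the step from G2 to mitosis, were not called in either, and Sfn had the widest standard error among the members, 0.231.

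Ckap2, a microtubule-associated protein of the mitotic spindle, was low in both P53-KO lines. Its values were -1.03, -1.02 and -1.02 in P53-KO/Mta1, -1.09, -0.97 and -1.09 in P53-KO, 0.37, 0.36 and 0.37 in Mta1-KO/Mta1, -0.01, 0.14 and 0.09 in Mta1-KO and 0.07, 0.12 and 0.00 in WT. Both P53-KO lines lay below all 9 other arrays. Ckap2 was 2.16-fold lower in P53-KO than in WT (log2 fold change -1.11, adjusted p = 3.79e-10 from limma), a call that quantile normalization takes below 2-fold (log2 fold change -0.89). Mta1-KO differed from WT by 0.01 (95% interval -0.10 to 0.13).

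Among the apoptosis and autophagy targets, Fas, Phlda3 and Dram1 were called up in Mta1-KO against WT and Eda2r was called down in P53-KO against WT. Eda2r, a receptor of the TNF receptor superfamily, had the largest fall of any member in P53-KO. Its values were -2.48, -2.50 and -2.50 in P53-KO/Mta1, -2.42, -2.51 and -2.24 in P53-KO, 0.75, 0.85 and 0.83 in Mta1-KO/Mta1, 0.02, 0.19 and 0.09 in Mta1-KO and -0.06, 0.16 and 0.00 in WT. The gap between the P53-KO lines and all the others was wide, and WT and Mta1-KO overlapped. Eda2r was 5.36-fold lower in P53-KO than in WT (log2 fold change -2.42, standard error 0.0734, adjusted p = 4.14e-12) and 5.76-fold below WT in P53-KO/Mta1.

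Fas, a death receptor, went up in both knockouts. Its values were -0.68, -0.43 and -0.35 in P53-KO/Mta1, -0.10, 0.29 and 0.00 in P53-KO, 0.41, 0.28 and 0.54 in Mta1-KO/Mta1, 0.83, 0.81 and 0.66 in Mta1-KO and -1.62, -1.59 and -1.75 in WT. The WT arrays lay below the other 12 arrays. The fold above WT was 5.36 in Mta1-KO (adjusted p = 1.95e-10 from limma) and 3.29 in P53-KO (adjusted p = 6.30e-09). In P53-KO/Mta1 it was 2.25-fold above WT, a call that was lost under quantile normalization (log2 fold change 0.85). Phlda3, an inhibitor of AKT signalling, was 4.86-fold above WT in Mta1-KO and Dram1, a lysosomal protein of autophagy, 3.98-fold higher. In P53-KO they were 1.57-fold and 1.63-fold above WT, below the call.

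Bbc3, Pmaip1, Apaf1 and Bid, which encode proteins of the mitochondrial death pathway, were not called in Mta1-KO or P53-KO against WT. Bbc3 and Pmaip1, which encode the BH3-only proteins PUMA and NOXA, differed from WT by at most 0.36 in size on the log2 scale in Mta1-KO and P53-KO. Apaf1, which assembles the apoptosome, was 1.23-fold higher in Mta1-KO and 1.49-fold higher in P53-KO. Bid, a BH3-only protein activated by cleavage, was 1.5-fold higher in Mta1-KO (adjusted p = 2.06e-06) and 1.31-fold lower in P53-KO (adjusted p = 7.54e-05). Aen, a nuclease of apoptosis, followed the same order, 1.30-fold higher and 1.67-fold lower, and Zmat3, a zinc finger RNA-binding protein, was 1.64-fold higher and 1.23-fold lower. Perp, a protein of cell junctions, ran the other way. It was the sole member with all P53-KO arrays above the others, with values of 1.13, 0.79 and 1.13 in P53-KO/Mta1 and 0.32, 0.54 and 0.40 in P53-KO, against a highest value of 0.00 elsewhere, and at 2.15-fold it was called up in P53-KO/Mta1 against WT.

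In P53-KO/Mta1 against WT, Fas and Perp were called up and Ckap2, Eda2r and Ak1 down. These are 2 and 3 of 34 members (5.88% and 8.82%), where 3.14% of all rows were called up and 4.53% down. With the adjusted p of limma under 0.05 alone 8 of 34 members were higher and 17 of 34 lower, beside 20.4% and 25.8% of all rows. Both shares exceeded those of all rows, that of lower members by more. Cd82, a tetraspanin, and Sesn1, a sestrin, were 1.97-fold and 1.88-fold lower, short of the call, which Cd82 passed without WT replicate 3 (log2 fold change -1.04) or P53-KO/Mta1 replicate 3 (-1.01).

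**Figure D3:**
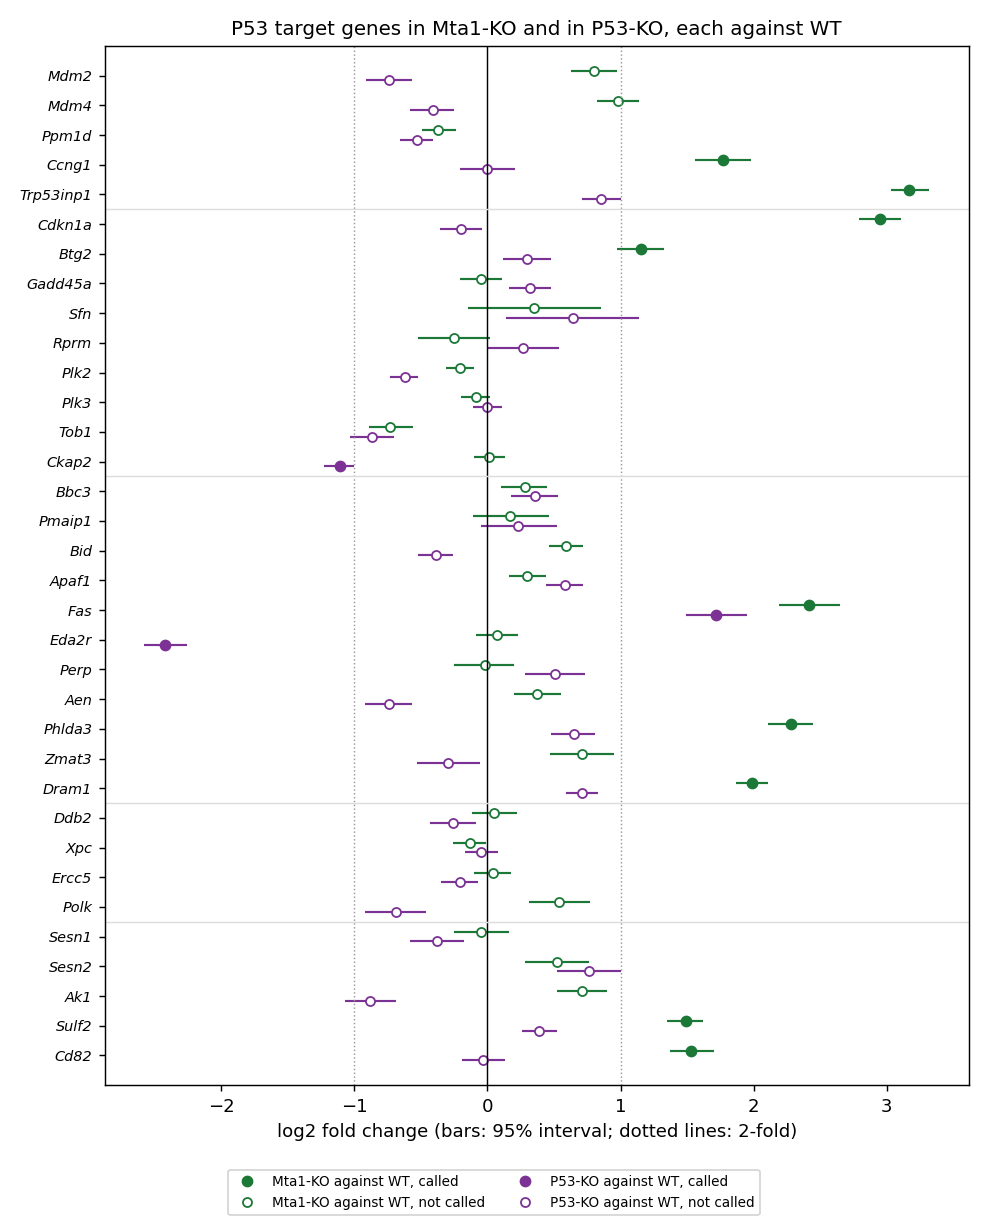
Log2 fold change of each P53 target gene in Mta1-KO (green) and P53-KO (purple), both against the same WT arrays; points are the limma estimates from 3 arrays a group, bars are 95% intervals, filled points are called and dotted lines mark 2-fold. There are 9 filled green points, all to the right, and 3 filled purple points, Eda2r and Ckap2 to the left and Fas to the right.

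The DNA repair targets were not called in Mta1-KO or P53-KO against WT. Polk, a translesion DNA polymerase, had means of -0.44 ± 0.155 in P53-KO/Mta1, -0.75 ± 0.127 in P53-KO, 1.02 ± 0.162 in Mta1-KO/Mta1, 0.48 ± 0.138 in Mta1-KO and -0.06 ± 0.13 in WT (SD, n = 3 arrays each). It was 1.45-fold above WT in Mta1-KO and 1.62-fold lower in P53-KO than in WT. Its rise in Mta1-KO/Mta1 against WT, 2.10-fold, was called, and leaving out WT replicate 3 or Mta1-KO/Mta1 replicate 1 took it just below 2-fold. Ddb2 and Xpc, damage sensors of nucleotide excision repair, and Ercc5, its endonuclease, differed from WT by at most 1.2-fold in Mta1-KO and P53-KO.

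Of the remaining targets, Sulf2 and Cd82 were called up in Mta1-KO against WT. Cd82, a tetraspanin of the cell surface, was 2.89-fold higher and Sulf2, a sulfatase that edits heparan sulfate, 2.80-fold higher. Ak1, adenylate kinase, had values of -1.38, -1.01 and -1.0 in P53-KO/Mta1, -0.97, -0.86 and -0.88 in P53-KO, 0.23, 0.45 and 0.39 in Mta1-KO/Mta1, 0.65, 0.71 and 0.70 in Mta1-KO and -0.09, 0.03 and 0.00 in WT. Both P53-KO lines lay below WT and both Mta1-KO lines above it. The differences from WT were 1.84-fold lower in P53-KO (adjusted p = 9.06e-07 from limma), 2.16-fold lower in P53-KO/Mta1, which was called, and 1.63-fold higher in Mta1-KO. Without P53-KO/Mta1 replicate 1, the lowest array, the log2 fold change of P53-KO/Mta1 was -0.99 and the call was lost. Sesn1 and Sesn2, sestrins that restrain growth under stress, went separate ways in P53-KO, 1.30-fold lower and 1.69-fold higher than WT.

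Set against the other 3 lines, the P53-KO lines had lower Eda2r, Cdkn1a, Trp53inp1, Ak1, Mdm2, Cd82, Ckap2, Ccng1, Sulf2, Mdm4 and Polk. The study states that P53 is present in those 3 lines, which was not checked here. In this comparison 11 of 34 members (32.4%) were called down and 0 up, beside 2.44% of all rows called up and 4.0% called down, and with the adjusted p under 0.05 alone 23 were lower and 9 higher, beside 28.9% and 26.9% of all rows. The median of the members was -0.52 on the log2 scale. Under quantile normalization Ccng1 and Polk, both at -0.97, were no longer called. The result differed with the line set on the other side. Against WT alone, 2 members were called down and 1 up, beside 5.35% and 3.88% of all rows, with a median of -0.10, and Ccng1 and Trp53inp1 changed sign (log2 fold changes 0.14 and 0.37). Against the 2 Mta1-KO lines alone, 16 were called down and 0 up (47.1% and 0%), beside 4.73% and 2.81% of all rows, with a median of -0.82, and Cdkn1a was 9.47-fold lower (adjusted p = 4.18e-15 from limma). These last 2 comparisons were added after the values were seen.

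All 6 P53-KO arrays lay below all 9 others for 9 members (26.5%), Mdm2, Mdm4, Ckap2, Bid, Eda2r, Aen, Ercc5, Polk and Ak1, where 10.5% of all rows did so. They lay above all others for 1 member (2.94%), Perp, where 8.91% of all rows did. Cdkn1a, Ccng1 and Trp53inp1 are not among the 9, since their WT arrays did not all lie above both P53-KO lines. Embryonic age and origin of the line follow the same split of the arrays, and their part in these differences cannot be told apart from that of P53. Since P53-KO/Mta1 was made from P53-KO MEFs, agreement of the P53-KO lines with each other is not independent replication.

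In the comparisons labelled as added Mta1, few members differed by 2-fold, as did few of all rows. The Mta1 row was not higher in arrays labelled Mta1-KO/Mta1 than in Mta1-KO, so these differences are those of the labels. In the arrays labelled Mta1-KO/Mta1, 0 of 34 members were called against Mta1-KO, where 0.322% of all rows were called up and 0.788% down by limma. The methods' t-test also called 0. At an adjusted p under 0.05 from limma alone 11 of 34 were higher and 7 of 34 lower, larger shares than the 12.4% and 15.7% of all rows. Cdkn1a and Mdm2 were higher than in Mta1-KO, 1.44-fold and 1.52-fold (adjusted p = 0.00012 and 6.18e-05 from limma), and Eda2r was 1.63-fold higher. After quantile normalization Cdkn1a was called up, with a log2 fold change of 1.15. Cd82, Phlda3, Sesn1 and Btg2 were lower, 1.78-fold, 1.63-fold, 1.48-fold and 1.42-fold. None of the 9 members raised in Mta1-KO came back to the WT level in these arrays, as Btg2, the nearest, still had values of 0.17, 0.41 and 0.31, against -0.40, -0.30 and -0.34 in WT. How many of all rows raised in Mta1-KO came back was not counted, so this is not shown to be particular to the members. Called up in Mta1-KO/Mta1 against WT were 11 members (32.4%), where 3.37% of all rows were called up, and 0 down, where 2.37% were. At an adjusted p under 0.05 alone 21 were higher and 5 lower there, beside 15.7% and 22.8% of all rows.

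In P53-KO/Mta1, Sulf2 was the sole member called against P53-KO, where 1.22% of all rows were called down and 0.394% up. Its values were -1.10, -1.23 and -1.06 in P53-KO/Mta1 and -0.09, 0.03 and 0.00 in P53-KO, a 2.16-fold fall (log2 fold change -1.11, standard error 0.0612, adjusted p = 1.40e-08 from limma). Trp53inp1 and Cd82 came close, 1.96-fold and 1.93-fold lower, and 2 members were called without P53-KO replicate 1 (Trp53inp1, -1.01), P53-KO replicate 2 (Cd82, -1.01) or P53-KO/Mta1 replicate 1 (Trp53inp1, -1.0). At an adjusted p under 0.05 alone 9 of 34 members were higher and 11 of 34 lower, larger shares than the 15.7% and 14.2% of all rows. Cdkn1a was 1.28-fold and Mdm2 1.36-fold above P53-KO in P53-KO/Mta1.

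**Figure D4:**
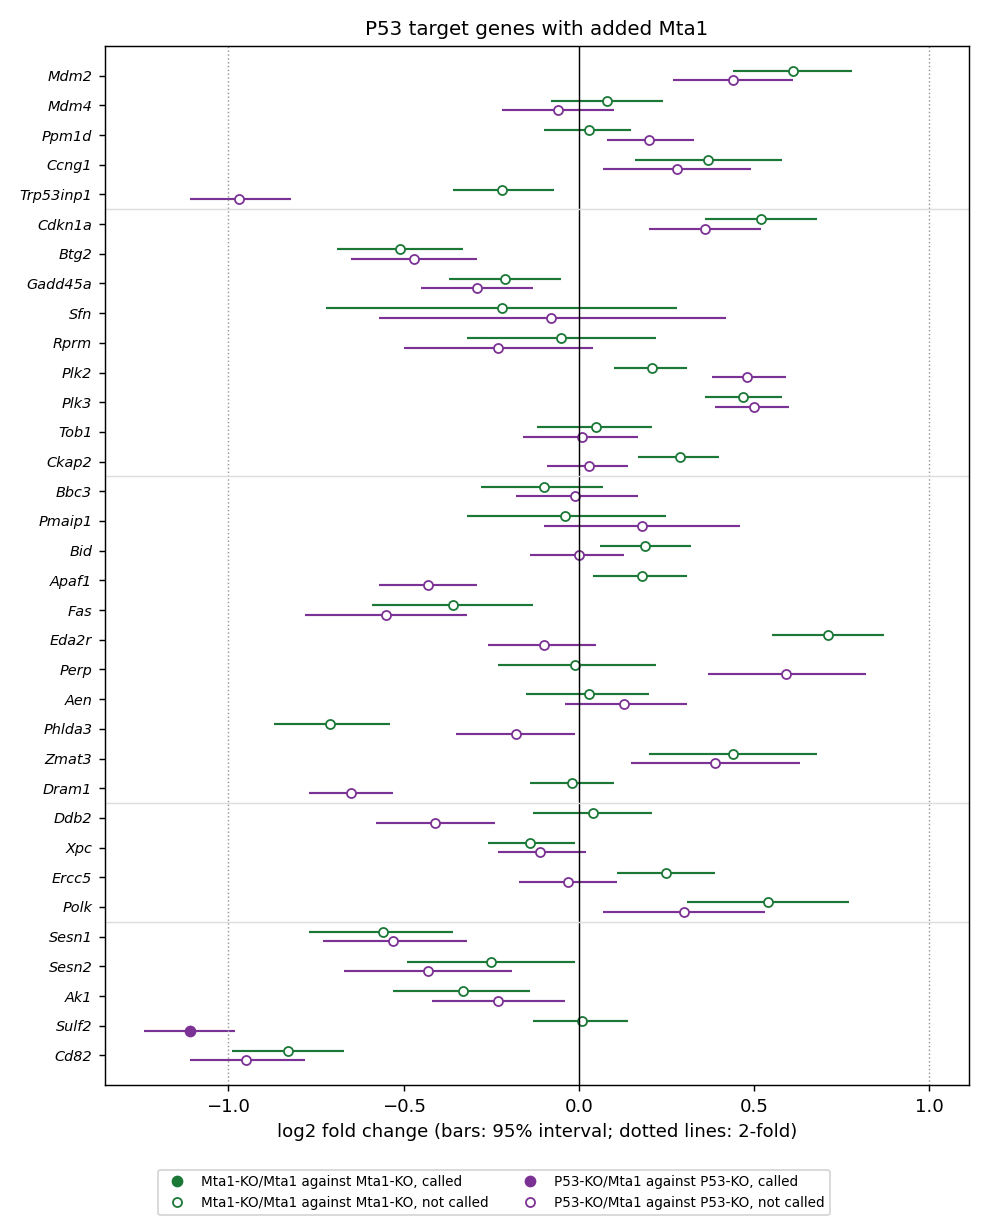
Log2 fold change of each P53 target gene in the lines labelled as having added Mta1, in Mta1-KO MEFs (green, Mta1-KO/Mta1 against Mta1-KO) and in P53-KO MEFs (purple, P53-KO/Mta1 against P53-KO); points are limma estimates from 3 arrays a group and bars are 95% intervals. The sole filled point is Sulf2 in P53-KO MEFs, at -1.11, while Sulf2 in Mta1-KO MEFs sits at 0.01.

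The response to added Mta1 differed between the backgrounds for Sulf2, with log2 fold changes of 0.01 in arrays labelled Mta1-KO/Mta1 against Mta1-KO and -1.11 in P53-KO/Mta1 against P53-KO. A contrast of these responses gave a difference of 1.12 (standard error 0.0866, adjusted p = 1.06e-06 from limma). It was called for 1 of 34 members (2.94%), where 0.979% of all rows were called in that direction, and for 0 in the other, where 0.651% were. At an adjusted p under 0.05 alone the response was higher in Mta1-KO MEFs for 8 members, among them Eda2r (0.81) and Trp53inp1 (0.75), and lower for 3, Perp (-0.60), Phlda3 (-0.53) and Plk2 (-0.27), beside 7.31% and 10.1% of all rows. For Cdkn1a the responses differed by 0.17 (95% interval -0.06 to 0.39) and for Mdm2 by 0.17 (95% interval -0.08 to 0.41). These intervals do not show that the responses are equal. Under quantile normalization Trp53inp1 was called too, at 1.13.

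Further textbook targets outside the member list were also called up in Mta1-KO. This list, like the members, was chosen with earlier results of these data known and is no separate check. Of 37 with a row, 8 (21.6%) were called up and 0 down in Mta1-KO against WT, beside 4.23% and 2.41% of all rows, among them Tap1, a peptide transporter of antigen presentation (log2 fold change 2.79), Lpin1, a phosphatidate phosphatase (1.87), Cdc42ep3, a CDC42 effector (1.61), and Tnfrsf10b, the TRAIL death receptor (1.49). Tap1 and Irf5 are also known as interferon-induced genes. In P53-KO against WT 6 (16.2%) were called up, with Cdc42ep3 (1.84) and Ptp4a3 (1.74) the highest, and 2 (5.41%) down, Kitl (-1.24) and Slc19a2 (-1.21), beside 4.87% and 7.26% of all rows. The median was 0.16 in Mta1-KO against WT and 0.15 in P53-KO against WT, beside 0.03 and 0.04 over all rows.

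The genes that act on P53 included large differences of their own. Of 24 with a row, 1 (4.17%) was called up and 5 (20.8%) down in Mta1-KO against WT, beside 4.23% and 2.41% of all rows, and 1 of these 5 is Mta1, the gene knocked out in that line. In P53-KO against WT 2 (8.33%) were called up and 5 (20.8%) down, beside 4.87% and 7.26% of all rows. The medians were -0.26 and -0.27. Cdkn2a, whose ARF product blocks Mdm2, had a log2 fold change of -3.95 in Mta1-KO (adjusted p = 8.54e-14 from limma) and of 0.20 in P53-KO (adjusted p = 0.0577). Hipk2, a kinase of P53, changed by -1.92 in Mta1-KO and by 1.03 in P53-KO. Chek1 and Chek2, the checkpoint kinases, fell in P53-KO by 2.07 and 1.96 on the log2 scale, and Rchy1, another ubiquitin ligase of P53, fell by 1.24. Twist1, a repressor of P53 function, was called up in both, at 1.17 and 1.27. The part of any of these in the levels of the members was not tested.

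Most of the cell cycle genes that P53 and P21 repress through the DREAM complex were lower in P53-KO than in WT. Of 30 with a row, 5 (16.7%) were called down and 0 up, beside 7.26% and 4.87% of all rows, with the largest falls in Ccne2 (-1.70), Bub1 (-1.28), Mcm5 (-1.25) and Cenpe (-1.03), and 25 were lower and 2 higher at an adjusted p under 0.05 from limma alone, beside 27.4% and 26% of all rows. In Mta1-KO against WT, 1 (3.33%) was called down, Ccne2 (-1.10), beside 2.41% of all rows, and 16 were lower and 1 higher at an adjusted p under 0.05 alone, beside 22.6% and 17.6% of all rows. The mean of the list in an array lay between 0.00 and 0.02 in P53-KO/Mta1, between -0.48 and -0.40 in P53-KO, between 0.09 and 0.16 in Mta1-KO/Mta1, between -0.12 and 0.01 in Mta1-KO and between 0.18 and 0.28 in WT. In P53-KO/Mta1 against P53-KO 23 were higher and 0 lower at an adjusted p under 0.05 alone, beside 15.7% and 14.2% of all rows. Ckap2, itself a mitotic gene, differed there by 0.03 (95% interval -0.09 to 0.14). The median log2 fold change of the list was -0.81 in P53-KO and -0.27 in Mta1-KO, both against WT. The part of this list in the low Ckap2 of the P53-KO lines was not tested.

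Several fibroblast markers also differed between the lines, and the sum over the 12 markers, all with a row, was lowest in WT. In Mta1-KO against WT 6 were called up and 0 down, beside 4.23% and 2.41% of all rows, and in P53-KO against WT 8 were called up and 1, S100a4 (-1.22), down, beside 4.87% and 7.26% of all rows, with medians of 0.98 and 1.47. S100a4 was also called down in P53-KO/Mta1 against WT (-1.03). That sum of log2 values in an array lay between -0.79 and 0.74 in P53-KO/Mta1, between 6.24 and 7.72 in P53-KO, between -2.21 and -1.75 in Mta1-KO/Mta1, between 3.78 and 4.12 in Mta1-KO and between -14.62 and -13.64 in WT. P53-KO was highest by these markers, while the Mta1-KO lines were highest by the P53 targets. In Mta1-KO against WT the medians of both lists were positive, 0.98 for the markers and 0.36 for the targets. In P53-KO against WT they were 1.47 and -0.04. Endothelial markers were not called in Mta1-KO or P53-KO against WT (0 of 10 by limma, with 1 and 0 past an adjusted p under 0.05 alone). Of 11 epithelial markers 1 was called down in Mta1-KO (Krt19) and 0 in P53-KO, and of 11 blood and macrophage markers 2 (Csf1r and Cd14) and 1 (Csf1r). Of 9 muscle markers 3 were called up in each, Acta2, Des and Tnnt2 in Mta1-KO and Acta2, Tagln and Cnn1 in P53-KO. Of 9 neural markers Sox2 was called down in both, at -4.46 in Mta1-KO and -1.35 in P53-KO, and Nes up in P53-KO. In Mta1-KO against WT, Sox2, Dcn (4.90), Thy1 (4.20) and Acta2 (3.19) differed more than any P53 target, of which the largest was 3.17. The part of these marker differences in the levels of the P53 targets was not tested, and in RNA from whole cultures a change in the share of a cell type and a change of RNA per cell cannot be told apart.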

How the data were processed

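RNA of 5 MEF lines, with 3 arrays each, had been hybridized by the authors to exon arrays. The deposited values are log2 values that the authors normalized in GeneSpring GX, with each row centred on its median, and how the exon probes were summarized is not stated by the sources at hand. The members and all gene lists were chosen with earlier results of these data known. Gene names came from the array's platform annotation, and every member had 1 row. A mean for each group was fitted to all 16755 rows with limma 3.58.1 in R 4.3.3 (10 residual and 3.46 prior degrees of freedom), with Benjamini-Hochberg adjustment over all rows, and tested on simulated data. Named were every member with a row and, from the other lists, up to 4 called genes in each direction in P53-KO and in Mta1-KO against WT. Markers were given by count, and a few by size. Python 3.11.15 with matplotlib 3.10.9 served for summaries and plots. Promoters are RefSeq windows. Alternatives were the methods' t-test, only the arrays compared, quantile normalization, median centring, no minimum fold, trend and robust settings, the replicate number as a block and each array left out.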

Additional observations from a re-analysis of the deposited data

Results flagged for a closer look

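The response of Sulf2, a sulfatase that edits heparan sulfate, to added Mta1 differed between the Mta1-KO and the P53-KO MEFs by 1.12 on the log2 scale, in a limma contrast that tests this difference itself (adjusted p = 1.06e-06). Leaving out each of the 15 arrays in turn gave differences in the same direction. The arrays labelled Mta1-KO/Mta1 held no more of the Mta1 row than Mta1-KO, while P53-KO/Mta1 held more of it than P53-KO. These responses may therefore not be to a like rise in Mta1.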

How the results depend on the processing

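The counts of members called and their medians kept their direction and size with arrays centred on their median and with trend and robust settings, and also, where these were run, under the methods' t-test and with only the arrays compared. The t-test was not run for the difference of the Mta1 responses, and neither was run for the P53-KO lines against the others. With no minimum fold the members higher and lower were 19 and 3 in Mta1-KO against WT, 11 and 7 for Mta1 added to Mta1-KO MEFs, 9 and 11 in P53-KO/Mta1 against P53-KO, 12 and 16 in P53-KO against WT, 8 and 17 in P53-KO/Mta1 against WT, 21 and 5 in Mta1-KO/Mta1 against WT, 8 and 3 in the difference of the Mta1 responses and 9 and 23 in the P53-KO lines against the others. Quantile normalization gave 1 member up and a median of 0.10 for Mta1 added to Mta1-KO MEFs, 1 down in P53-KO against WT, 1 up in P53-KO/Mta1 against WT, a median of 0.46 in Mta1-KO/Mta1 against WT, 2 up and a median of 0.22 in the difference of the responses, and a median of -0.46 in the P53-KO lines against the others. It also moved the share of called rows that were up, over all rows, to 50.2% beside 29.0% for added Mta1 in Mta1-KO MEFs, to 35.1% beside 24.4% in P53-KO/Mta1 against P53-KO and to 48.3% beside 37.8% in the P53-KO lines against the others. The cause of these shifts was not tested. Against WT alone, a comparison chosen after seeing the data, the P53-KO lines had 1 member up, 2 down and a median of -0.10, with Ccng1 at 0.14 and Trp53inp1 at 0.37 in the opposite direction, and against the Mta1-KO lines alone, chosen likewise, a median of -0.82. Leaving out single arrays gave medians of 0.33 to 0.45 in Mta1-KO against WT, with the highest without WT replicate 3, and of -0.10 to -0.03 in P53-KO against WT, and 1 to 2 members down in P53-KO/Mta1 against P53-KO. No pairing by replicate number was seen. Deviations of same-numbered arrays correlated from -0.379 to 0.423 (median 0.0263), and those of different-numbered arrays from -0.552 to 0.46 (median -0.0135). With the number as a block no count or call changed (9 members up in Mta1-KO against WT, for example). Since every member had 1 row and the values hold no level, another choice of row and a filter on dim probes were not run. With 3 arrays a group and centred values, neither signal over background nor an absent transcript can be read.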
